A study of Mus musculus with 48 samples.

Results

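The interleukin-1 (IL-1) family and the NLRP3 inflammasome were followed in the lungs of 48 mice through 10 genes taken by symbol from the 47561 genes of the table: Il1a, Il1b, Il1rn, Il1r1, Il1r2, Il33, Il1rl1, Il18, Nlrp3 and Casp1. RNA of lung tissue was sequenced from male and female mice of the inbred strains C3H/HeN (C3H) and C57Bl/6 (C57B), aged 6 to 8 weeks in the study's methods, which describe 12 lungs of both strains and sexes. Each mouse was given a single intraperitoneal injection of saline or of 25 mg/kg ATG (aurothioglucose, a gold drug known to block thioredoxin reductases) and was then kept for 96 h in room air or in hyperoxia, oxygen at 95% or more. The 16 combinations of strain, sex, injection and air hold 3 mice each. The labels name no transgene or allele, and saline was the injection of the control groups. The series text and the methods differ on 2 points that touch these groups. The C57Bl/6 substrain, absent from the labels, is J in the series text and N in the methods, and the series text mentions ATG for each group of mice and no saline. The labels, which give saline to 24 of the 48 mice, were followed. The values are FPKM, in which fragments of a gene are divided by transcript length and by the library's mapped fragments, so levels of different genes can be set side by side. The labels tie each library to a mouse of its own.

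The IL-1 family ligands are alarm signals of injured or infected tissue. IL-1α and IL-1β act through the receptor IL-1R1, while the receptor antagonist encoded by Il1rn occupies that receptor without signalling and the decoy receptor encoded by Il1r2 binds the ligands without signalling. IL-33, held in the nuclei of barrier and stromal cells, acts through the receptor encoded by Il1rl1 (ST2), which also has a soluble form. IL-1β and IL-18 are made as inactive precursors and are cut by caspase-1 after a sensor such as NLRP3 assembles an inflammasome, a step that RNA levels do not show. In the lung, alveolar macrophages, neutrophils and epithelial cells are known sources of these transcripts.

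By GENCODE M21 on GRCm38 (mm10), all 10 are protein coding genes. Il1r2 (ENSMUSG00000026073, chr1:40074079-40125231), Il1r1 (ENSMUSG00000026072, chr1:40225080-40317257) and Il1rl1 (ENSMUSG00000026069, chr1:40429570-40465415) lie on the plus strand of chromosome 1. Il1a (ENSMUSG00000027399, chr2:129299610-129309972) and Il1b (ENSMUSG00000027398, chr2:129364570-129371139) lie on the minus strand of chromosome 2, and Il1rn (ENSMUSG00000026981, chr2:24336853-24351494) on the plus strand of the same chromosome. The other genes, all on the plus strand, are Il33 (ENSMUSG00000024810, chr19:29925114-29960718), Il18 (ENSMUSG00000039217, chr9:50554827-50581840), Casp1 (ENSMUSG00000025888, chr9:5298517-5307265) and Nlrp3 (ENSMUSG00000032691, chr11:59541568-59566956). Genes of the opposite strand overlap Il1a, Il1b, Il1r2 and Il18, and none of these overlapping genes was above an FPKM of 1.17 in any mouse.

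RefSeq promoter windows of GRCm38.p6, from 250 bases before to 50 bases after a start site, were found for all 10 genes, 16 windows in all. They were searched on both strands for GGGNNNTTCC, a pattern bound by NF-κB, the factor through which IL-1 receptors act on many genes. The pattern was chosen after the levels had been seen, and matches were free to overlap. It was present in 4 of the 16 windows, those of Il1rn (3 windows) and Il1r1 (1 window), and in 5.56% of all 32851 windows. Of the Il1rn windows 2 overlap and hold the same match, so the 4 windows have 3 distinct matches in 2 genes. Il1r2 and Nlrp3, which were also higher in hyperoxia, have no match in any of their windows. The 4 windows below are shown because Il1rn and Il1r1 hold the pattern and were both higher in hyperoxia, and because Il1b, the ligand that they bind or compete with, has no match. They run 5′ to 3′ on the gene's strand, and capitals mark the matches.
Il1rn, upstream start, chr2:24336610-24336909: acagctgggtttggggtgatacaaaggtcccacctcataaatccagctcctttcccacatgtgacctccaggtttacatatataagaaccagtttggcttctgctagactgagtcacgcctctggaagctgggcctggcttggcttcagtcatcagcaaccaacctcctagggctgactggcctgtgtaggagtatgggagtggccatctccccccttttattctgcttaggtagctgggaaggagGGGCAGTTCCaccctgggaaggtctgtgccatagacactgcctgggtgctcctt
Il1rn, downstream start, chr2:24345121-24345420: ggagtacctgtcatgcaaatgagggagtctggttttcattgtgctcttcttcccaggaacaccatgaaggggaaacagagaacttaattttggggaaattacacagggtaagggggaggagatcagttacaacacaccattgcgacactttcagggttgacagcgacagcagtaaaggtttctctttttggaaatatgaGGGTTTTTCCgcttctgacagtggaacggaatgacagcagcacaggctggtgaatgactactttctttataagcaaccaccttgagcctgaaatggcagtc
Il1r1, downstream start, chr1:40266336-40266635: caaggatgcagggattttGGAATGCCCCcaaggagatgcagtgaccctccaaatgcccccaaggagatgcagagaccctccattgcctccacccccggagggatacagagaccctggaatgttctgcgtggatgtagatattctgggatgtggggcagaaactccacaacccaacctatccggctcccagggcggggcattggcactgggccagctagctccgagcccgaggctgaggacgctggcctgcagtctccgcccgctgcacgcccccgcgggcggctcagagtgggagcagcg
Il1b, chr2:129371090-129371389: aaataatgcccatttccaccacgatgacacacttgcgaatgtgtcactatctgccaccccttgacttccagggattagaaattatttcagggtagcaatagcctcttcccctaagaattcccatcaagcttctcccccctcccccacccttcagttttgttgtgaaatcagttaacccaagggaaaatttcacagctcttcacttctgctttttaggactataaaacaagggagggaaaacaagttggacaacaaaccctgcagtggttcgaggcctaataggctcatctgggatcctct
In Il1rn the upstream match runs over the start site, and the downstream window holds a match 51 bases before its start. In Il1r1 the match is read on the opposite strand, 232 bases before the start. These letters are a description of the windows, and binding was not measured.

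The sum of FPKM per library ranged from 510933 to 748290. Scgb1a1, a secretory protein of club cells, took 1.2% to 30.2% of this sum, with medians of 16.2% in room air and 3.89% in hyperoxia among saline mice. The mean correlation with the other mice of the group was lowest for mice 2 (0.943) and 1 (0.945), both C3H males given saline in room air, mouse 19 (0.946, C57B male, saline, hyperoxia) and mouse 33 (0.948, C3H female, saline, hyperoxia). Mice 2, 19 and 33, each the lowest of its group of 3, were also left out together, and each is named where a value turns on it. Markers of alveolar epithelium, club cells, endothelium and alveolar macrophages were expressed. Markers of cardiac muscle fell in hyperoxia in saline mice in 4 of 4 genes, beside 28.3% of all genes. Lung pieces were whole tissue, so fewer cells of a type and less RNA per cell cannot be told apart.

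Over all 48 mice the median level was highest for Il33 (34.1 FPKM), followed by Il18 (13.2), Il1r1 (11.2), Il1b (8.63), Il1rn (7.15), Casp1 (4.86), Il1a (2.31), Il1r2 (2.10), Nlrp3 (1.23) and Il1rl1 (1.01). The ranges of neighbours in this order overlapped in every case. The highest mouse stood 98.8 times above the median for Il1r2 and 33.2 times for Il1b, against 1.70 times for Casp1 and 1.95 times for Il33. By this measure the decoy receptor and IL-1β transcripts varied most among the 10 and those of caspase-1 and IL-33 least. Il1r2 was listed at 0 in 2 mice.

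**Figure D1:**
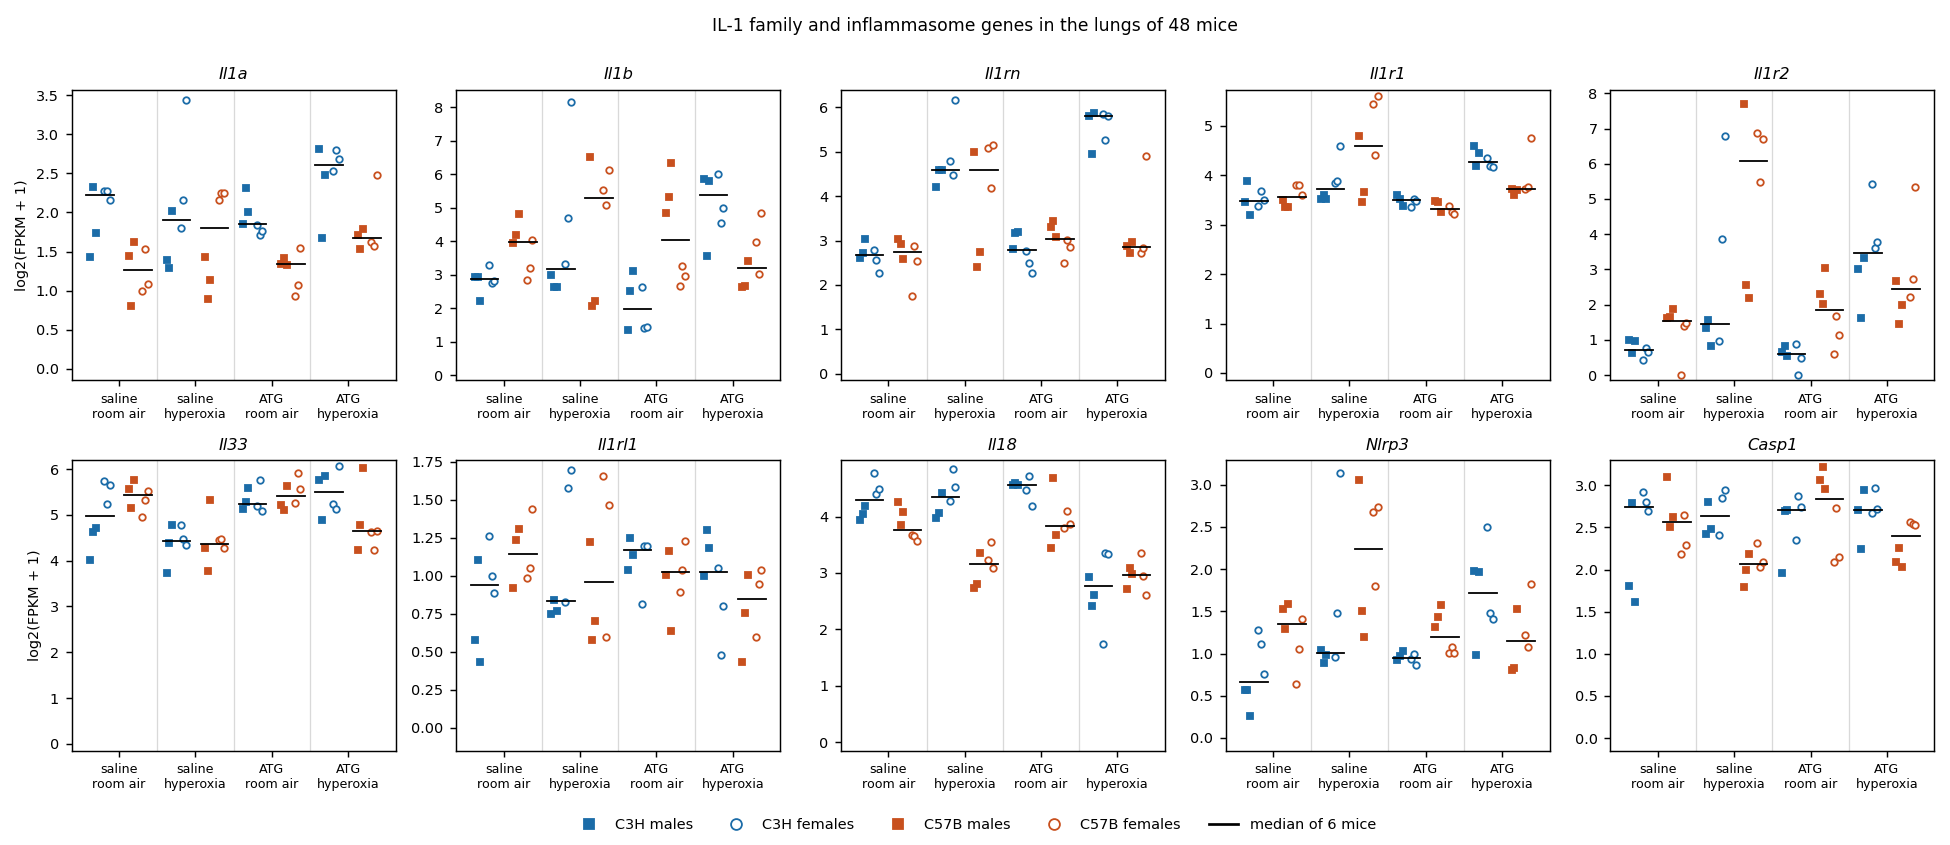
Levels of the 10 genes as log2(FPKM + 1) in each of 48 mice, grouped by injection and air, with C3H in blue, C57B in orange, males as filled squares, females as open circles and the median of 6 mice as a line. Il1rn in C3H mice given ATG and hyperoxia lies between 30.1 and 57.5 FPKM, above all 6 C57B mice of the same treatment.

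Hyperoxia was compared with room air in the 24 saline mice. Antagonist, decoy and signalling receptor transcripts of IL-1 and the sensor Nlrp3 were higher in hyperoxia, while Il33 and Il18 were lower. With limma on log2(FPKM + 1) and Benjamini-Hochberg adjustment, 4 of the 10 genes were higher and 2 lower at an adjusted p under 0.05, beside 60.1% of all 16321 genes tested (31.8% higher and 28.3% lower), so the number of calls is close to that of genes at large. All 10 genes passed the filter on low values here and in each comparison that follows. The median difference was 0.43 over the 10 genes and 0.01 over all genes on the log2 scale. Each of these 6 calls remained under every alternative run.

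Il1rn, the receptor antagonist, was between 3.82 and 7.24 FPKM in the 6 C3H mice in room air and between 17.6 and 70.9 (median 23.0) in hyperoxia. In C57B mice it was between 2.37 and 7.23 in room air and between 4.27 and 34.8 (median 24.1) in hyperoxia. All 6 C3H mice in hyperoxia lay above all 6 in room air, whereas C57B males 20 and 21 stayed at 4.27 and 5.68, within the range of room air. Il1rn rose by 1.81 ± 0.25 on the log2 scale (SE, adjusted p = 3.9e-06 in limma).

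Il1r2, the decoy receptor, was between 0.33 and 0.98 FPKM in C3H mice in room air. In hyperoxia the C3H males stood at 1.51, 1.93 and 0.77 and the C3H females at 0.97, 13.5 and 109. In C57B mice it was between 0 and 2.65 in room air and between 3.55 and 208 (median 73.3) in hyperoxia, and the groups did not overlap in this strain. In C3H, 4 of the 6 mice in hyperoxia lay above all 6 in room air, 2 of the males among them. The highest values were those of C57B male 19 (208), C57B female 43 (117), C3H female 33 (109) and C57B female 45 (103). Il1r2 rose by 2.87 ± 0.57 on the log2 scale (SE, adjusted p = 0.00023 in limma). The signalling receptor Il1r1 ranged from 8.19 to 13.7 FPKM in the 12 mice in room air and from 9.96 to 47.6 in hyperoxia, and rose by 0.65 ± 0.15 (adjusted p = 0.0011 in limma). Its 3 highest values were again those of C57B females 43 and 45 (42.6 and 47.6) and C57B male 19 (26.7), and the groups overlapped.

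Among the ligands, Il1b was between 3.62 and 27.3 FPKM (median 7.44) in room air and between 3.22 and 287 (median 16.9) in hyperoxia. The hyperoxia values were spread widely, with 6 of the 12 mice at 8.92 or below, 1 at 24.9 and 5 from 32.6 to 287. Its difference of 1.01 ± 0.48 did not pass the test (adjusted p = 0.079 in limma). The call was made in the fit of all 48 mice (adjusted p = 0.037 in limma) and when C57B male 20, C57B male 21 or C3H female 31 was left out (adjusted p = 0.037, 0.042 and 0.020 in limma), and adjusted p ranged from 0.020 to 0.17 over all alternatives. The difference was 0.32 with mice 2, 19 and 33 left out together. Il1a differed by 0.21 ± 0.17 (adjusted p = 0.29 in limma), and its highest value, 9.82 FPKM, was that of C3H female 33.

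Il33 ranged from 15.3 to 53.2 FPKM (median 38.1) in room air and from 12.4 to 38.9 (median 20.5) in hyperoxia, and fell by 0.77 on the log2 scale (SE 0.16, adjusted p = 0.00026 in limma). Only C57B male 21, at 38.9, was above 26.6 in hyperoxia. Its receptor Il1rl1 was low in both airs, between 0.35 and 2.24 FPKM over the 24 mice, with a difference of 0.04 ± 0.14 (adjusted p = 0.81 in limma). A difference was thus called for the ligand and not for its receptor.

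Of the inflammasome genes, Nlrp3 was between 0.20 and 2.01 FPKM in room air and between 0.85 and 7.83 in hyperoxia, and rose by 0.78 ± 0.23 (adjusted p = 0.0055 in limma). The 2 highest mice were C3H female 33 and C57B male 19 (7.28). Casp1 differed by -0.14 ± 0.12 (adjusted p = 0.35 in limma). Il18 fell by 0.34 on the log2 scale (SE 0.09, adjusted p = 0.0033 in limma), with levels between 10.8 and 26.4 FPKM in room air and between 5.67 and 27.6 in hyperoxia. In hyperoxia all 6 C57B mice were at 10.7 or below and all 6 C3H mice at 14.7 or above.

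**Figure D2:**
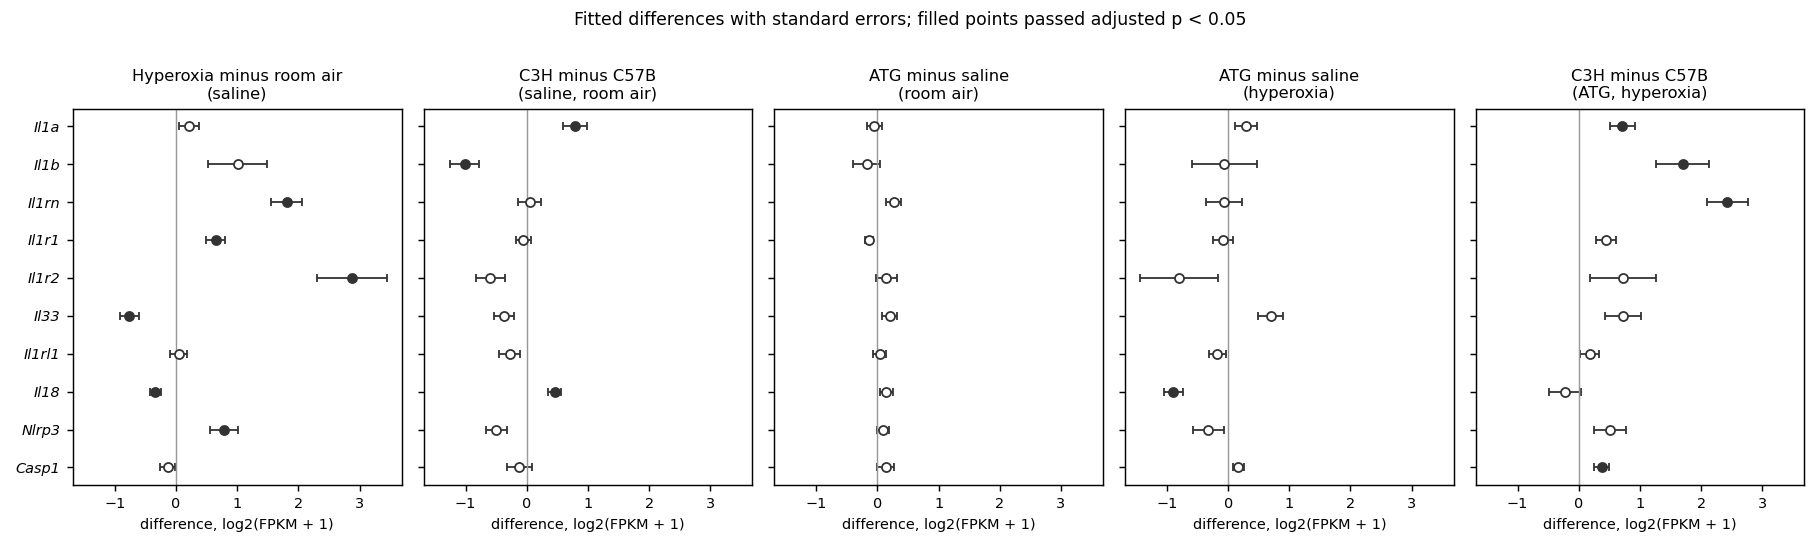
Fitted differences of the 10 genes on the log2(FPKM + 1) scale with standard errors in 5 comparisons, with points filled where the adjusted p was under 0.05. Hyperoxia gave 6 filled points, ATG in room air none and ATG in hyperoxia 1, that of Il18.

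Neutrophil markers moved with several of these genes. The 8 markers (S100a8, S100a9, Csf3r, Cxcr2, Retnlg, Ly6g, Mmp8 and Ngp) were all measured, and 8 of 8 were higher in hyperoxia in saline mice, beside 31.8% of all genes. Their summed level was between 137 and 779.8 FPKM in saline mice in room air and between 166.3 and 6360 in hyperoxia, and Ly6g was at 0 in some mice of each treatment. The 6 saline hyperoxia mice with the highest sums were 33 (6360), 19 (4965), 45 (4205), 43 (4060), 44 (2199) and 32 (1506), and the same 6 had the highest Il1b, Il1r2 and Nlrp3 FPKM of those 12 mice except for Nlrp3, where male 20 (1.83) stood just above female 32 (1.78). The part of neutrophils in the differences of Il1b, Il1r2 and Nlrp3 was not tested.

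Il1rn ran closer to another marker list. Over the 48 mice its r was 0.80 with the summed level of 7 markers of recruited monocytes and macrophages and 0.58 with the neutrophil sum. Of these 7 markers, 4 were higher and 1 lower in hyperoxia in saline mice, beside 31.8% higher and 28.3% lower of all genes. Their sum was between 198.8 and 424.5 FPKM in room air and between 316.1 and 1283 in hyperoxia. The C3H males 7, 8 and 9 in hyperoxia had recruited sums of 437.6, 531.6 and 405.6 FPKM. C3H mice in room air were between 222.3 and 424.5, a range that includes the value of male 9. Neutrophil sums of these males were 182.6 to 224.5 FPKM, within the range of 137 to 313.8 of C3H mice in room air. Il1rn in these males was 17.6, 23.1 and 23.0 FPKM, above the highest room air value of 7.24. Il1b was 7.04, 5.17 and 5.27 FPKM, inside its room air range of 3.62 to 8.76 in that strain. The part of either cell type in the Il1rn difference was not tested.

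**Figure D3:**
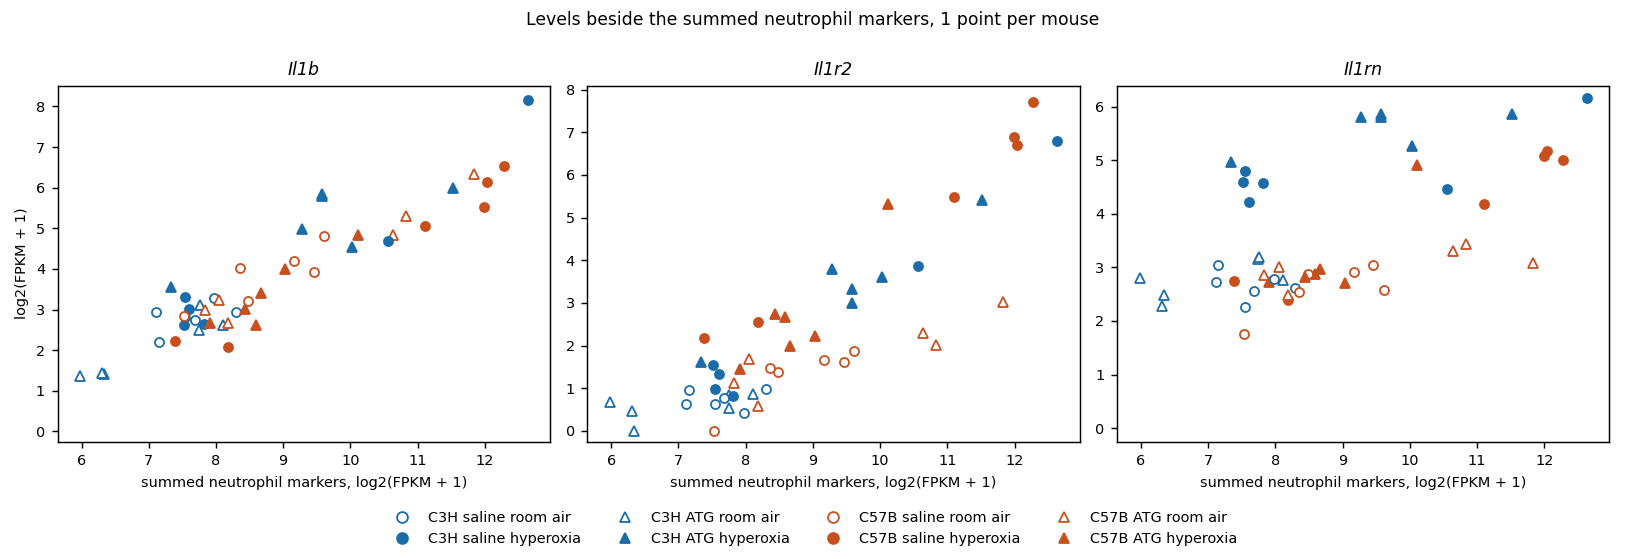
Log2(FPKM + 1) of Il1b, Il1r2 and Il1rn in 48 mice plotted against the log2(summed FPKM + 1) of 8 neutrophil markers, with C3H in blue, C57B in orange, saline as circles, ATG as triangles and hyperoxia filled. The r with the marker sum is 0.93 for Il1b, 0.87 for Il1r2 and 0.58 for Il1rn, and the 3 C3H males given saline and hyperoxia have Il1rn of 17.6 to 23.1 FPKM at sums of 182.6 to 224.5.

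Other genes of the pathway were described by 4 lists. Of 14 IL-1-inducible genes, 14 were higher in hyperoxia, with a median difference of 2.73 on the log2 scale beside 0.01 over all genes, of which 31.8% were higher and 28.3% lower. They included Saa3 (4.64), an acute phase protein, Ccl2 (4.55), a monocyte attractant, Cxcl1 (4.09), a neutrophil attractant, and Il6 (4.02). Il6 and Cxcl2 did not pass the filter in the saline room air mice alone. They entered this test through mice in hyperoxia, so the filter itself favoured a higher call for them. Other stimuli also induce the genes of this list. Of 10 tested genes of IL-1 receptor signalling, 7 were higher and none lower, among them Irak2 (1.31), Myd88 (0.91), the adaptor of the receptor, and Irak3 (0.76), an inhibitor of the same pathway. Irak1 and Tab3 were not testable, being on the X chromosome, whose genes are listed at 0 throughout.

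Among 7 tested ligands and receptors of the family beyond the 10, Il36g (1.90), Il1rap (0.91), the shared accessory receptor, Il1rl2 (0.77) and Il18rap (0.66) were higher, and Sigirr (-0.54), an inhibitory receptor, was lower. Among 14 tested sensors, adaptors and genes of pyroptosis, 5 were higher and 2 lower, to be read against the 31.8% and 28.3% of all genes. Nlrp12, among those higher, passed the filter only with the hyperoxia mice included, which favoured a higher call. Casp4 (0.86), the caspase that senses cytosolic lipopolysaccharide, and Ninj1 (0.75), which ruptures dying cells, were higher. Txnip (-0.89), which binds thioredoxin, and P2rx7 (-0.44), an ATP-gated channel, were lower. The medians of these lists were 0.66 and 0.13.

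Strains were compared in the 12 saline mice in room air. Averaged over sexes, Il1a and Il18 were higher and Il1b lower in C3H than C57B. Thus 2 genes were higher and 1 lower, beside 11.8% of all 15546 genes (3.92% higher and 7.87% lower). Il1b was between 3.62 and 8.76 FPKM in C3H and between 6.13 and 27.3 in C57B, lower in C3H by 1.02 on the log2 scale (difference -1.02 ± 0.23, adjusted p = 0.014 in limma). Neutrophil markers were lower in C3H for 5 of 8 genes, with sums of 137 to 313.8 FPKM in C3H and 183.5 to 779.8 in C57B, and their part in the Il1b difference was not tested. The C57B males, at 14.3, 17.3 and 27.3 FPKM of Il1b, had both the higher Il1b and the higher marker sums, 572.7 to 779.8.

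Il1a was between 1.70 and 4.02 FPKM in C3H and between 0.74 and 2.09 in C57B, a difference of 0.79 ± 0.19 (adjusted p = 0.020 in limma). The call was lost when C57B female 37 or 39 was left out (adjusted p = 0.0506 and 0.0512 in limma). Without female 37, in which Il1r2 is listed at 0, Il1r2 (-0.84) and Nlrp3 (-0.59) passed as lower in C3H (adjusted p = 0.0050 and 0.047 in limma). Il18 was between 14.4 and 26.4 FPKM in C3H and between 10.8 and 18.2 in C57B, a difference of 0.46 ± 0.10 (adjusted p = 0.014 in limma). This is an average over sexes. The fitted strain difference of Il18 was -0.008 ± 0.148 in males and 0.928 ± 0.148 in females. Its interaction of strain and sex did not pass (adjusted p = 0.13 in limma). In the fit of all 48 mice the calls of Il1b (adjusted p = 0.25 in limma) and Il18 (0.11) were lost. The 4 pathway lists hold 11, 12, 18 and 14 genes, not all of them tested. Of these, no gene was higher in C3H, and Il36g (-0.98), Myd88 (-0.42), Irak4 (-0.41), Pycard (-1.09), the adaptor of inflammasomes, Lcn2 (-0.83) and Mmp3 (-1.10) were lower. These calls are to be read against the 3.92% higher and 7.87% lower of all genes.

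Between sexes, 0 of the 10 genes passed the test in saline mice in room air, beside 0.669% of all genes, and 1 gene, Il33, had an unadjusted p under 0.05 (limma, male minus female difference -0.43 ± 0.16, adjusted p = 0.16). For the interaction of strain and sex, 0 of the 10 genes and 0% of all genes passed, with 5 of the 10 and 2538 of 15546 genes at an unadjusted p under 0.05 in limma. The C3H males 1 and 3 stood apart from C3H male 2, with Casp1 at 2.49 and 2.05 FPKM beside 5.90. Without C3H male 2 the interaction passed for Il33 (-1.40), Il18 (-0.93) and Casp1 (-1.47), with adjusted p of 0.021, 0.016 and 0.0073 in limma. In the fit of all 48 mice, with none left out, Casp1 passed (-1.11, adjusted p = 0.045 in limma) and the other 9 genes did not.

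The effect of hyperoxia was then compared between strains and between sexes in the 24 saline mice. For strain, 1 of 10 genes passed, Il18, beside 11.5% of all genes (8.71% higher in C3H and 2.81% lower). Il18 stood at 14.7, 15.7 and 20.3 FPKM in C3H males and 18.4, 27.6 and 22.0 in C3H females in hyperoxia. C57B males were at 5.67, 5.95 and 9.18 and C57B females at 8.43, 10.7 and 7.52. The 6 C57B mice in hyperoxia lay below all 6 in room air (10.8 to 18.2), whereas the C3H mice overlapped those in room air (14.4 to 26.4). Fitted effects were 0.04 ± 0.13 (C3H) and -0.72 ± 0.13 (C57B). Their difference of 0.76 ± 0.18 had an adjusted p of 0.011 in limma, which became 0.055 in the fit of all 48 mice.

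Casp1 showed a difference of 0.70 ± 0.25 in the same direction that did not pass (adjusted p = 0.068 in limma). It passed in the fit of all 48 mice (0.032) and without C3H male 2 (0.0043). Il1r1 passed without C57B female 44 (difference -0.87, adjusted p = 0.047 in limma). Sigirr (0.80), Nek7 (0.45), which binds NLRP3, and P2rx7 (0.62) of the lists had a higher effect in C3H, and Traf6 (-0.75) a lower one. Over all genes 8.71% had a higher effect and 2.81% a lower one.

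For sex, 0 of the 10 genes passed, beside 0.0368% of all genes, and Il1a, Il1b, Il1rn, Il1r1 and Il1r2 had an unadjusted p under 0.05 in limma. The fitted effect of hyperoxia on Il1b was -0.32 ± 0.68 in males and 2.33 ± 0.68 in females, and on Il1r2 1.41 ± 0.81 and 4.33 ± 0.81. C57B male 19 was the only male with high values, with Il1b at 91.3 FPKM beside 3.22 and 3.70 in males 20 and 21. Without mouse 19, 4 genes passed: Il1b (-3.38), Il1rn (-1.82), Il1r1 (-0.91) and Il1r2 (-3.81), with adjusted p of 0.024, 0.018, 0.042 and 0.026 in limma. Neutrophil marker sums were 166.3 to 289.8 FPKM in 5 of the 6 hyperoxia males and 4965 in male 19. Among the hyperoxia females, C3H female 31 was at 185.3, as low as those males, and the others were between 1506 and 6360. The part of neutrophils in these differences was not tested.

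A direct comparison of strains in the 12 saline mice in hyperoxia was added after the values had been seen. Il18 (1.22 ± 0.15, adjusted p = 0.00019 in limma) and Casp1 (0.58 ± 0.13, adjusted p = 0.0082 in limma) were higher in C3H, 2 of the 10 genes beside 28.2% of all genes (16% higher and 12.2% lower). Casp1 was between 4.31 and 6.70 FPKM in C3H and between 2.46 and 3.96 in C57B. Both transcripts, a caspase and one of its substrates, were higher in every C3H mouse than in every C57B mouse. In the fit of all 48 mice, Il1r1 (-0.73), Il1r2 (-2.70) and Nlrp3 (-0.74) also passed as lower in C3H (adjusted p = 0.0021, 0.0024 and 0.036 in limma), which made 5 genes. The same 5 passed in the fit of these 12 mice without C3H female 33, with Il1r1 (-0.86), Il1r2 (-3.43) and Nlrp3 (-1.06) (adjusted p = 0.033, 0.019 and 0.030 in limma). Il1rn passed without C57B male 19 (1.12, higher in C3H, adjusted p = 0.021 in limma), Il1r1 without C57B male 20 or C57B female 44 (0.040 and 0.019) and Il1r2 without C57B male 21 (0.048).

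ATG was compared with saline in the 24 mice in room air. None of the 10 genes passed, beside 0.0185% of all genes, and 1 gene, Il1rn (0.26 ± 0.12, adjusted p = 0.72 in limma), had an unadjusted p under 0.05. The widest standard error of the 10 was that of Il1b (0.22). The fitted ATG effect on Il1b was 0.41 ± 0.31 in males and -0.76 ± 0.31 in females, and 0.39 ± 0.31 in C57B and -0.75 ± 0.31 in C3H. In C3H mice Il1b was between 1.56 and 7.65 FPKM with ATG and between 3.62 and 8.76 with saline. Il1b was 27.6, 38.7 and 79.7 FPKM in C57B males given ATG, above the 14.3 to 27.3 of C57B males given saline. The neutrophil sums of these 3 C57B males, 1590 to 3648 FPKM, were also above the 572.7 to 779.8 of saline C57B males, and their part in the values was not tested. No gene of the 4 pathway lists passed in limma.

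In the 24 mice in hyperoxia, 1 of the 10 genes passed, Il18, which was lower with ATG, beside 5.47% of all genes (3.89% higher and 1.58% lower). With ATG, Il18 was 6.60, 4.36 and 5.14 FPKM in C3H males and 2.34, 9.18 and 9.04 in C3H females, all below the 14.7 to 27.6 of the 6 saline C3H mice. In C57B mice it was between 5.12 and 9.23 FPKM with ATG and between 5.67 and 10.7 with saline, and the groups overlapped. The groups of the 2 treatments were thus separate in C3H, where the levels with ATG overlapped those of C57B mice. Il18 fell by 0.90 on the log2 scale (SE 0.16, adjusted p = 0.0073 in limma), and the difference from the effect of ATG in room air, -1.04 ± 0.20, also passed (adjusted p = 0.0044 in limma), 1 of 10 genes beside 2.77% of all genes (1.56% higher and 1.21% lower). Both calls of Il18 remained under every alternative run.

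Of 7 alveolar macrophage markers, 3 were lower with ATG in hyperoxia, as Il18 was, beside 1.58% of all genes: Ear2 (-1.11), Siglecf (-0.80) and Chil3 (-0.83). Marco, Pparg, Fabp4 and Car4 did not pass. In saline mice, hyperoxia moved the list both ways, with Marco, Chil3, Pparg and Fabp4 higher and Ear2, Siglecf and Car4 lower, while Il18 was lower. Over all genes 31.8% were higher and 28.3% lower in that comparison. Ear2 was between 24.95 and 133.1 FPKM in saline and between 15.5 and 37.7 in ATG mice in hyperoxia, and Siglecf between 1.24 and 4.93 and between 0.74 and 2.44. The summed level of all 7 markers was 423 to 1002 FPKM in C3H saline and 204 to 551.2 in C3H ATG mice in hyperoxia, and 772.6 to 1941 and 718.5 to 1758 in C57B mice. Over the 48 mice this sum had an r of -0.03 with Il18, while Ear2 alone, 1 of the 7 markers, had an r of 0.82. The sum is weighted to its most abundant genes, as FPKM reached 1595 for Chil3 and 8.96 for Siglecf. Ear2 was the gene most like Il18 among 16994 genes, so its r is the highest of many. The sums of markers of alveolar type 2, alveolar type 1 and club cells had r of 0.555, 0.55 and 0.545. Those of mast cells and basophils and of cardiac muscle had r of 0.529 and 0.517. None of the 7 alveolar macrophage markers was at 0 in any mouse, and the part of any of these cells in the Il18 difference was not tested.

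The ATG effect was further compared between strains in hyperoxia, a comparison added after the values had been seen. In C3H mice the fitted effect was -1.62 ± 0.22 for Il18 and in C57B mice -0.18 ± 0.22, and the difference of -1.44 ± 0.32 had an adjusted p of 0.0511 in limma, with 0.0040 in the fit of all 48 mice. It passed also when any 1 of C57B male 21, C3H females 33 to 36 and C57B females 44 and 48 was left out. For Il1b, Il1rn, Il1r1, Il1r2 and Nlrp3 the estimates had opposite signs, above 0 in C3H and below 0 in C57B, with differences of 2.22 ± 1.06, 1.72 ± 0.59, 1.17 ± 0.33, 3.42 ± 1.27 and 1.25 ± 0.51. None of the 10 passed, beside 0.416% of all genes, and 6 had an unadjusted p under 0.05 in limma. Il1r1 passed in the fit of all 48 mice (adjusted p = 0.013 in limma) and without C3H female 33 (0.049) or C57B female 44 (0.047).

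Il33 was between 28.4 and 66.3 FPKM in C3H mice given ATG and between 12.4 and 26.6 in C3H saline mice in hyperoxia, with no overlap. In C57B mice it was between 17.8 and 64.0 with ATG and between 12.7 and 38.9 with saline. Over both strains its difference of 0.70 ± 0.20 just missed the threshold (adjusted p = 0.0512 in limma), and it passed in the fit of all 48 mice (0.015) and without C3H male 9, C3H male 11, C57B male 21 or C57B male 22 (adjusted p = 0.042, 0.033, 0.020 and 0.023 in limma). With hyperoxia alone Il33 was lower than in room air. With ATG in hyperoxia the C3H levels overlapped those of saline C3H mice in room air (15.3 to 52.8). The saline C3H mice in hyperoxia overlapped that range as well, with 1 of 6 below it, so the overlap does not set the ATG mice apart. Both comparisons share the 12 saline mice in hyperoxia. Of the lists, Il18bp (0.39), the soluble inhibitor of IL-18, and Casp8 (0.23) were higher with ATG in hyperoxia and Traf6 (-0.27) lower. Over all genes 3.89% were higher and 1.58% lower.

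**Figure D4:**
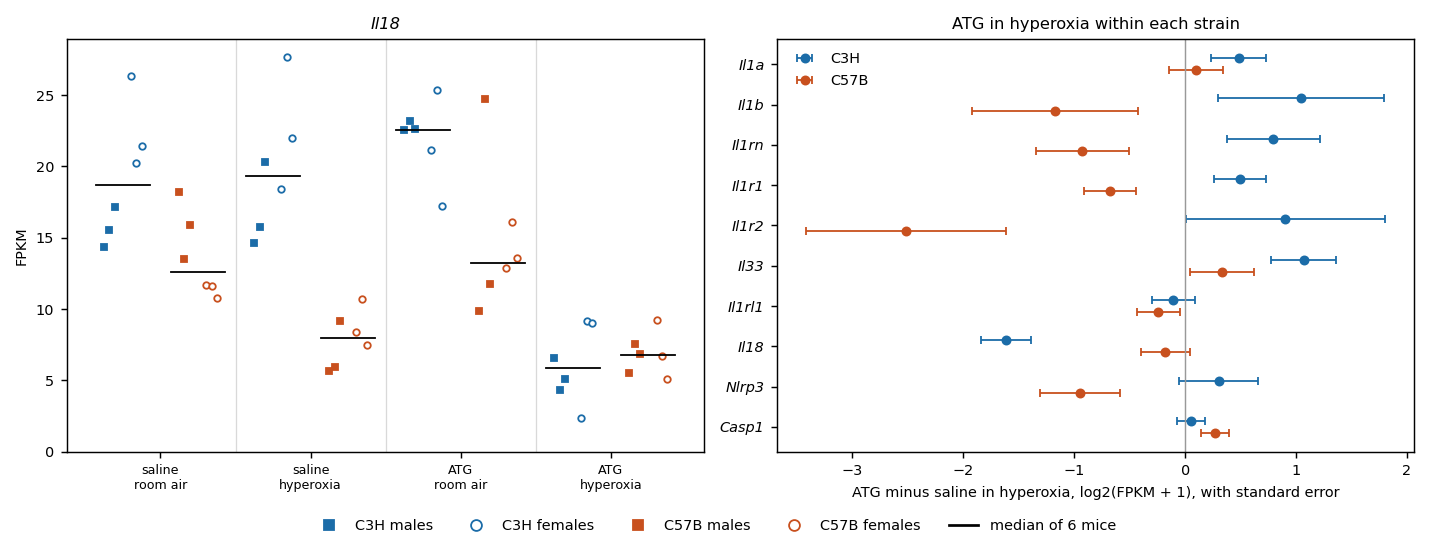
On the left, Il18 in FPKM in each mouse with the median of 6 mice per strain, injection and air, in which C3H mice given ATG and hyperoxia (2.34 to 9.18) lie below C3H saline mice in hyperoxia (14.7 to 27.6). On the right, the fitted ATG effect in hyperoxia within each strain, on the log2(FPKM + 1) scale with its standard error, above 0 in C3H and below 0 in C57B for Il1b, Il1rn, Il1r1, Il1r2 and Nlrp3.

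Strains were finally compared in the 12 mice given ATG in hyperoxia, also added after the values had been seen. Il1rn, Il1b, Il1a and Casp1 were higher in C3H, 4 of 10 genes beside 27.2% of all 15142 genes (14.3% higher and 12.9% lower). Il1rn was 55.1, 30.1 and 57.5 FPKM in C3H males and 57.1, 37.5 and 55.1 in C3H females. In C57B mice it was 6.37, 5.59 and 6.78 in males and 5.55, 6.10 and 29.0 in females. The strains did not overlap, and C57B female 48 (29.0) was the only C57B mouse near the C3H range. The difference was 2.43 ± 0.34 (adjusted p = 0.00031 in limma).

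Il1b in these mice was between 10.8 and 62.8 FPKM in C3H (median 42.7) and between 5.17 and 27.5 in C57B (median 8.39), a difference of 1.70 ± 0.44 (adjusted p = 0.014 in limma). The order of the strains was thus opposite to that of saline mice in room air, where Il1b was lower in C3H, though the difference between these 2 comparisons was not tested. Neutrophil sums were 160.7 to 2934 FPKM in C3H and 239.5 to 1105 in C57B. Of the 8 markers, 1 (Csf3r, 1.30) was higher in C3H, beside 14.3% of all genes. The part of neutrophils in the Il1b difference was not tested. Il1a (0.71 ± 0.21, adjusted p = 0.026 in limma) and Casp1 (0.37 ± 0.13, adjusted p = 0.046 in limma) were near the threshold. Both calls were lost without a filter on low values (adjusted p = 0.054 and 0.076 in limma). Without any 1 of mice 10, 12, 23, 35, 36, 46 and 47 only 2 of the 4 calls remained, those of Il1rn and Il1b. Casp1 was also lost without mouse 22, 24, 34 or 48, Il33 passed without mouse 24 (0.98) and Il1r1 without mouse 48 (0.61). In the fit of all 48 mice Casp1 was lost (adjusted p = 0.097 in limma) and Il33 passed (0.73, adjusted p = 0.027 in limma).

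The IL-1-inducible genes showed the same strain order, with 12 of 14 higher in C3H (median 1.36, beside 0.01 over all genes, of which 14.3% were higher). The largest differences among these 14 were those of Saa3 (4.49), Cxcl5 (3.81) and Cxcl1 (3.44). In saline mice in hyperoxia none of the 14 was higher in C3H and 2, Lcn2 (-1.38) and Mmp3 (-1.36), were lower. Over all genes of that comparison 16% were higher and 12.2% lower, so the number of lower calls is close to that of genes at large. The ATG effect itself differed between strains for 2 of the 14, beside 0.416% of all genes: Saa3 (5.26, adjusted p = 0.014 in limma) and Lcn2 (2.70, adjusted p = 0.047 in limma). Il18bp (0.82), Myd88 (0.52), P2rx7 (0.71), Casp4 (0.69) and Gsdmd (0.51), which forms the pores of pyroptosis, were also higher in C3H with ATG and hyperoxia.

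The balance of antagonist and ligand was described by the ratio of Il1rn to Il1b FPKM in each mouse. In C3H saline mice its median was 0.81 in room air (range 0.63 to 2.00) and 2.75 in hyperoxia (0.25 to 4.46). In C57B saline mice it was 0.38 (0.18 to 0.77) and 0.62 (0.34 to 1.54). With ATG in C3H mice it was 1.98 in room air (1.07 to 3.87) and 1.37 in hyperoxia (0.91 to 2.80), an order opposite to that with saline. With ATG in C57B mice it was 0.58 (0.093 to 0.90) and 0.95 (0.37 to 1.23). The ranges of the airs overlapped in each of these 4 pairs, and no test was run on the ratio. The lowest C3H value in hyperoxia, 0.25, was that of female 33, whose Il1b of 287 FPKM was the highest of all mice.

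Across the 48 mice the genes fell into patterns that are given as a description, since the points share treatments and libraries. On log2(FPKM + 1), Pearson's r was 0.89 between Il1r2 and Nlrp3, 0.85 between Il1b and Nlrp3, 0.83 between Il1r1 and Il1r2 and 0.81 between Il1b and Il1r2. Il1rn reached 0.73 with Il1r1 and 0.70 with Il1r2. Il18 ran the other way, with r of -0.51 with both Il1r1 and Il1r2. The neutrophil sum had an r of 0.93 with Il1b, 0.87 with Il1r2 and 0.85 with Nlrp3, 0.58 with Il1rn, 0.17 with Casp1 and -0.34 with Il18.

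Among 16994 genes, those most like each of the 10 over the 48 mice were named by the highest r. They were Cxcr2 (0.95), Csf3r (0.94) and S100a9 (0.94) for Il1b, Ccr1 (0.95), Mmp8 (0.94) and Trem1 (0.93) for Il1r2, and Trem1 (0.94), Tnfsf14 (0.92) and Cxcr2 (0.91) for Nlrp3. For Il1rn they were Cotl1 (0.92), Steap4 (0.92) and Cxcl5 (0.91), and for Il1r1 Csf3 (0.93), Pi15 (0.92) and Cxcl3 (0.91). For Il18 they were Ear2 (0.82), Abcg1 (0.80) and Lilra5 (0.79), and for Il33 Ciita (0.78), Oas1a (0.77) and Oasl2 (0.75). Casp1 was most like G3bp2 (0.78), Il1a like Rnase2a (0.74) and Il1rl1, the lowest of the 10, like Pde1b (0.64).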

How the data were processed

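Lung RNA (polyA) of 48 mice was sequenced in paired ends. Alignment by the authors used GSNAP against mm10, and Cufflinks, whose version is not given in the sources used here, made FPKM from it. The deposited table holds 1 FPKM value per gene and mouse. These values are scaled to length and mapped fragments. Absolute depth is unknown: ratios of low values between libraries fell on a common step (within 1%) for 20.1% to 33.8% of genes, which put relative depth between 0.771 and 1.25. Whether counting used strand is not given in the sources used here.

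Groups came from the labels. Log2(FPKM + 1) was fitted with limma 3.58.1 (R 4.3.3, eBayes with trend) over every gene that reached an FPKM of 1 in 3 or more mice of that fit, with a mean per combination of strain, sex, injection and air, Benjamini-Hochberg adjustment and a threshold of 0.05. Differences on this scale understate changes of low genes. On simulated data with 200 changed genes, 87.8% of genes changed by 1 on the log2 scale were recovered for hyperoxia and 50.5% for ATG by strain in hyperoxia. The data gave 9803 and 66 calls in these comparisons. Recovery under this adjustment depends on the number of changed genes, so these rates need not hold for the data. Python 3.11.15, pandas 2.3.3 and matplotlib 3.10.9 were used for tables and figures. Akap5, with failed estimates in 7 mice, was left out.

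The 10 genes, the lists and the promoter pattern were chosen with earlier results of these data known. Named beyond the 10 were list genes past the threshold and the genes with the highest correlation with each of the 10. Alternatives were a pseudocount of 0.1, no filter, quantile normalization, median ratio scaling, a fit of all 48 mice, each mouse left out, and mice 2, 19 and 33 left out together.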

Additional observations from a re-analysis of the deposited data

Results flagged for a closer look

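Dixon's ratio (the gap of the highest or lowest mouse to its neighbour, divided by the range) was computed for the 10 genes in 8 groups of 6 mice by strain, injection and air. It was taken on FPKM and was above the 95% critical value for 6 values in 13 of 80 groups. A chance rate of about 1 in 20 holds for independent, normally distributed values. The 80 groups share mice across correlated genes, so their number cannot be set against that rate. C3H female 33 stood above the other saline C3H mice in hyperoxia for Il1b (0.93), Il1r2 (0.883), Nlrp3 (0.867), Il1rn (0.828), Il1a (0.761) and Il1r1 (0.74). C57B female 48 stood above the other C57B mice given ATG and hyperoxia for Il1rn (0.947), Il1r1 (0.906), Il1r2 (0.895) and Il1a (0.795). C3H female 34 had the highest Il1r2 of the C3H mice given ATG and hyperoxia (0.73). Il33 was highest in C57B male 24 with ATG and hyperoxia (0.812) and in C57B male 21 with saline and hyperoxia (0.681).

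The summed neutrophil markers were 6360 FPKM in female 33, 2934 in female 34 and 1105 in female 48, each the highest of its group of 6. In male 24 and male 21 they were 405.1 and 166.3 FPKM.

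In the fits of each comparison's own mice, Il18 was the gene whose response differed between groups by a test of the difference itself. The effect of hyperoxia on it was higher in C3H than C57B by 0.76 on the log2 scale. The effect of ATG on it was lower in hyperoxia than in room air by 1.04 (difference -1.04). In the fit of all 48 mice the strain difference did not pass for Il18 (adjusted p = 0.055 in limma) and passed for Casp1 (0.032).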

How the results depend on the processing

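No paired analysis was possible because each mouse has a number of its own and no number is shared between groups. No difference of the 10 genes that passed a test changed its sign under the alternatives run. Over single genes, settings that left out 1 mouse gained 36 calls and lost 20, and the other settings gained 24 and lost 6. The fit of all 48 mice in 16 groups, which shares 1 estimate of the spread, changed the counts of the 10 genes for hyperoxia (6 to 7), strain (3 to 1), strain by sex (0 to 1), ATG in hyperoxia (1 to 2), ATG by strain in hyperoxia (0 to 2) and strain in hyperoxia (2 to 5). It also exchanged calls where the count stayed the same. Casp1 passed in place of Il18 for strain by hyperoxia, and Il33 in place of Casp1 for strain in ATG and hyperoxia. In that fit the counts of all genes became 2982 for strain (1832 in the fit of each comparison's own mice), 1915 for sex (104), 748 for strain by sex (0), 2994 for strain by hyperoxia (1880), 306 for sex by hyperoxia (6) and 234 for ATG by strain in hyperoxia (66).

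Without a filter on low values the counts were 40 genes for sex, 2 for strain by sex, 5 for ATG in room air, 313 for ATG by hyperoxia (470 with it), and 2 of the 10 genes for strain in ATG and hyperoxia (4 with it). A pseudocount of 0.1 gave 5 genes for strain by sex, and median ratio scaling 2 for sex by hyperoxia. Quantile normalization and median ratio scaling changed the share of higher calls for strain from 33.2% to 51.2% and 48%, for sex from 35.6% to 55.2% and 49.3%, for strain by hyperoxia from 75.6% to 49.1% and 46.5%, for sex by hyperoxia from 83.3% to 25% and 50%, for ATG in hyperoxia from 71.1% to 45.6% and 41%, and for ATG by hyperoxia from 56.4% to 34.7% and 32.8%. Before scaling, the median of all genes was -0.12 for sex, -0.15 for strain by sex, 0.15 for strain by hyperoxia and 0.14 for sex by hyperoxia on the log2 scale.

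With mice 2, 19 and 33 left out together, a setting chosen after seeing the data, the counts of the 10 genes were 3 for strain by sex, 3 for strain by hyperoxia, 4 for sex by hyperoxia, 1 for ATG by strain in hyperoxia and 6 for strain in hyperoxia. Those of all genes were 4021 for strain, 3640 for sex, 2741 for strain by sex, 3460 for strain by hyperoxia, 3064 for sex by hyperoxia, 32 for ATG in room air, 1602 for ATG by hyperoxia and 287 for ATG by strain in hyperoxia. Leaving out 1 mouse at a time, the counts of the 10 genes ranged from 6 to 7 for hyperoxia, 2 to 4 for strain, 0 to 3 for strain by sex, 1 to 2 for strain by hyperoxia, 0 to 4 for sex by hyperoxia, 1 to 2 for ATG in hyperoxia, 0 to 2 for ATG by strain in hyperoxia, 2 to 5 for strain in hyperoxia and 2 to 4 for strain in ATG and hyperoxia. Those of all genes ranged from 9479 to 10098 for hyperoxia, 1306 to 4021 for strain, 20 to 3640 for sex, 0 to 2741 for strain by sex, 1400 to 3242 for strain by hyperoxia, 2 to 1270 for sex by hyperoxia, 3 to 32 for ATG in room air, 443 to 1096 for ATG in hyperoxia, 243 to 1093 for ATG by hyperoxia and 37 to 302 for ATG by strain in hyperoxia. Mouse 2 gave the highest of these counts for strain, sex, strain by sex, strain by hyperoxia, sex by hyperoxia, ATG in room air and ATG by hyperoxia, and mouse 33 for ATG by strain in hyperoxia. For sex, each of the 12 mice moved the count of genes by over 1.5 times, as did mice 8, 10, 23, 24, 36, 45 and 47 for ATG in hyperoxia. Leaving out mouse 19 gave 1051 genes for sex by hyperoxia. The cause of these changes was not tested. With 3 mice per group and no counts, precision comes from the spread between mice alone.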
